A study of Mus musculus with 96 samples.

Results

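The mir-181 family is represented in the cerebellum of the Htt allelic series by 6 microRNA stem-loops, Mir181a-1 (MI0000697), Mir181a-2 (MI0000223), Mir181b-1 (MI0000723), Mir181b-2 (MI0000823), Mir181c (MI0000724) and Mir181d (MI0005450). They were taken by these IDs, 6 of the 1187 stem-loops in the deposited tables, and the family was chosen by its measured abundance, so its high levels are given below as a description with no test. Small RNA was sequenced from C57BL/6 mice that were heterozygous for a knock-in Htt allele, beside the endogenous mouse allele, with a repeat of 20 (Q20), 50 (Q50), 92 (Q92) or 140 (Q140) CAG units, and from wild type (WT) mice of the Q20 and Q50 lines. The 96 libraries came from mice of 6 and 10 months, with 4 males and 4 females for each genotype and age. The Q20 mice and the WT mice of both lines were pooled as controls, following the study's methods. By the methods, a litter gave at most 1 animal of each sex and genotype. Q92 and Q140 had no WT littermates among these libraries. Their labels name only mice of the same genotype as cage mates, where those of the Q20 and Q50 lines name WT mice too, although the methods describe cages of heterozygous and WT mice in general. By the labels, CAG length, line and housing cannot be told apart for these alleles.

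A microRNA gene gives a hairpin transcript that is cut into a 5p and a 3p strand, and bases 2 to 8 of the strand, the seed, pair with target messenger RNAs. The mir-181 loci lie in 3 pairs of neighbouring hairpins, and different loci can give the same mature strand. In the mouse the family is best known from lymphocyte development, and it is also abundant in the brain.

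The mature strands show why some of these loci cannot be fully separated by sequencing. The 4 distinct 5p strands are printed with the seed in capitals (RefSeq, GRCm38.p6).
miR-181a-5p: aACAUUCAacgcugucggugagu
miR-181b-5p: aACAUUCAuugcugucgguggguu
miR-181c-5p: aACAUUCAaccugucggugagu
miR-181d-5p: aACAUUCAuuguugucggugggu
All 4 shared the seed ACAUUCA, which no other mature strand among the 1679 in the RefSeq table carried. Both Mir181a-1 and Mir181a-2 give miR-181a-5p, and both Mir181b-1 and Mir181b-2 give miR-181b-5p. Counted from 1 at the 5′ end, miR-181b-5p and miR-181d-5p differed by C12U alone, apart from 1 further base at the end of the former.

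The 3p strands, shown because they tell the loci apart, had 4 different seeds.
miR-181a-1-3p: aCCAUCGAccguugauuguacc
miR-181c-3p: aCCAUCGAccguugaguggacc
miR-181a-2-3p: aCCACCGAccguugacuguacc
miR-181b-1-3p: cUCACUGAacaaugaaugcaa
miR-181b-2-3p: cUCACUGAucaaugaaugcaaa
miR-181d-3p: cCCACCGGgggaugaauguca
The strands of Mir181a-1 and Mir181a-2 differed by U5C and U16C, and the former shared its seed and a run of 15 bases with the 3p strand of Mir181c. The strands of Mir181b-1 and Mir181b-2 shared a seed and differed by A9U.

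The deposited estimated counts also showed loci that divide reads. Mir181b-2 and Mir181c have stem-loops of equal length and were told apart by the sums given here. Their place in a set was thus fixed by the naming and is no separate check of the sequences. Over all libraries the summed count of Mir181b-1 and Mir181b-2 was within 0.002 of a whole number, while each locus alone lay up to 0.5 from one. The same held for the sum of Mir181a-1, Mir181a-2 and Mir181c (within 0.0313). Reads had thus been divided within these sets, and the levels of the single loci in a set depend on that division. Mir181d was whole in every library and shared no reads.

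The hairpins of the loci on chromosomes 1 and 2 are printed with both mature strands in capitals, since the comparisons below turn on these loci.
Mir181a-1: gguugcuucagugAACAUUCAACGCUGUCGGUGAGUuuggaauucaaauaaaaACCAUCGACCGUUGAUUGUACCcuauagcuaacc
Mir181a-2: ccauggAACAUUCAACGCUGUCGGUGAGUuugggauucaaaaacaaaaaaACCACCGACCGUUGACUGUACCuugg
Mir181b-1: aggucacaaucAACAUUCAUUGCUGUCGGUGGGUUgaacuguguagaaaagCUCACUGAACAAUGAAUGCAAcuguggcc
Mir181b-2: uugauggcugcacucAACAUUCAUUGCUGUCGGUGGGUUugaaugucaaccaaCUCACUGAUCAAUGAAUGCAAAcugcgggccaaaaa
On GRCm38, Mir181a-1 lies on the plus strand at chr1:137966455-137966541 and Mir181b-1 at chr1:137966639-137966718, 97 bases downstream. Both fall within an intron of the non-coding gene Gm4258 on the same strand, and Mir181b-1 also lies within an exon of the long non-coding RNA A430106G13Rik. Mir181a-2 (chr2:38852735-38852810) and Mir181b-2 (chr2:38853830-38853918) lie 1019 bases apart on the plus strand, within an intron of Nr6a1, a nuclear receptor gene on the opposite strand. Mir181c (chr8:84178873-84178961) and Mir181d (chr8:84178716-84178787) are 85 bases apart on the minus strand, in an intron of the germ cell gene Nanos3. Within 200000 bases the chromosome 8 pair had 7 other microRNA genes, among them Mir23a, Mir27a and Mir24-2, and the other pairs had 0. The deposited IDs are not paired with names in the sources used here, so these neighbours and the microRNA markers of cell types were not examined, and the labelled tissue was not checked against markers.

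Library totals ran from 5435778 to 7934044 estimated counts. Z.k, a library's connectivity to all others less the median and divided by the median absolute deviation, was below -5 in 2 libraries of 6 months, Q20 female replicate 2 (-6.68) and Q92 male replicate 4 (-6.1). These were not used, so that 94 remained and Q20 and Q92 had 7 libraries at that age. Over these the family took 14.8% ± 1.12 of all counts (SD, n = 94, range 11.6% to 17.4%). In bulk cerebellum, fewer cells of a type and less RNA per cell cannot be told apart.

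Levels are compared between loci on the FPKM scale, which divides by stem-loop length, and are given in kFPKM (FPKM divided by 1000). Mir181a-2 had a mean of 1630 kFPKM (SD 137), ranked between place 1 and 2 of all stem-loops in every library, and made 83.6% of the family's counts. Mir181c followed with 129 kFPKM (SD 8.86). Mir181b-1 with 64.0 (SD 4.47) and Mir181a-1 with 61.9 (SD 5.18) kFPKM did not differ beyond their spread, and the former was higher in 66 of 94 libraries. By counts, without the division by length, Mir181a-1 was the higher, with a mean of 0.538% of all counts beside 0.512% for Mir181b-1. Mir181d with 15.4 (SD 0.863) and Mir181b-2 with 12.2 (SD 2.81) kFPKM also overlapped, and the former was higher in 84 of 94 libraries. The other steps in this order held in all 94 libraries with no overlap. Even the lowest value, 3489 estimated counts of Mir181b-2, lay far above the counting limit. That value is a share of divided reads, and how far the division adds to the spread between libraries was not tested.

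Q140 was compared with controls to ask which loci differ with a long repeat, and over both ages both mir-181a loci rose. Mir181a-2 was higher by a log2 fold change of 0.17 ± 0.04 (SE), or 1.13-fold, and Mir181a-1 by 0.14 ± 0.03, or 1.10-fold. The other 4 loci did not pass the test. These 2 of 6 loci divide reads, so they are not 2 separate observations. They stand beside 5.07% of all 434 stem-loops tested that passed in either direction, and 2.76% that passed as higher.

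The values of each library show the size of this change against its spread (kCPM, the count scaled to a common library size by TMM and divided by 1000). At 6 months Mir181a-2 lay between 117 and 145 in the 8 Q140 libraries (median 131) and between 105 and 143 in the 23 control libraries (median 120). At 10 months it lay between 125 and 149 in the 8 Q140 libraries (median 141) and between 95.5 and 142 in the 24 control libraries (median 123). The groups overlapped at both ages, although 7 of 8 Q140 libraries at 6 months and 8 of 8 at 10 months lay above the control median, and 1 and 4 of them lay above the highest control. The means were 132 ± 10.6 against 122 ± 8.76 (SD) at 6 months and 138 ± 9.52 against 121 ± 13.8 at 10 months.

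Mir181a-1, which gives the same 5p strand from chromosome 1, followed the same direction at a lower level. It divides reads with Mir181a-2, and how far its change rests on that division was not tested. At 6 months it lay between 5.10 and 6.31 kCPM in Q140 (median 5.89, mean 5.80 ± 0.436) and between 4.78 and 6.24 in controls (median 5.38, mean 5.39 ± 0.348). At 10 months it lay between 4.998 and 6.32 in Q140 (median 5.61, mean 5.68 ± 0.489) and between 4.35 and 5.93 in controls (median 5.2, mean 5.10 ± 0.434). Here 6 of 8 Q140 libraries at each age were above the control median. Above the highest control lay 2 of them at 6 months and 3 at 10 months. At 10 months the groups thus overlapped more than for Mir181a-2.

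**Figure D1:**
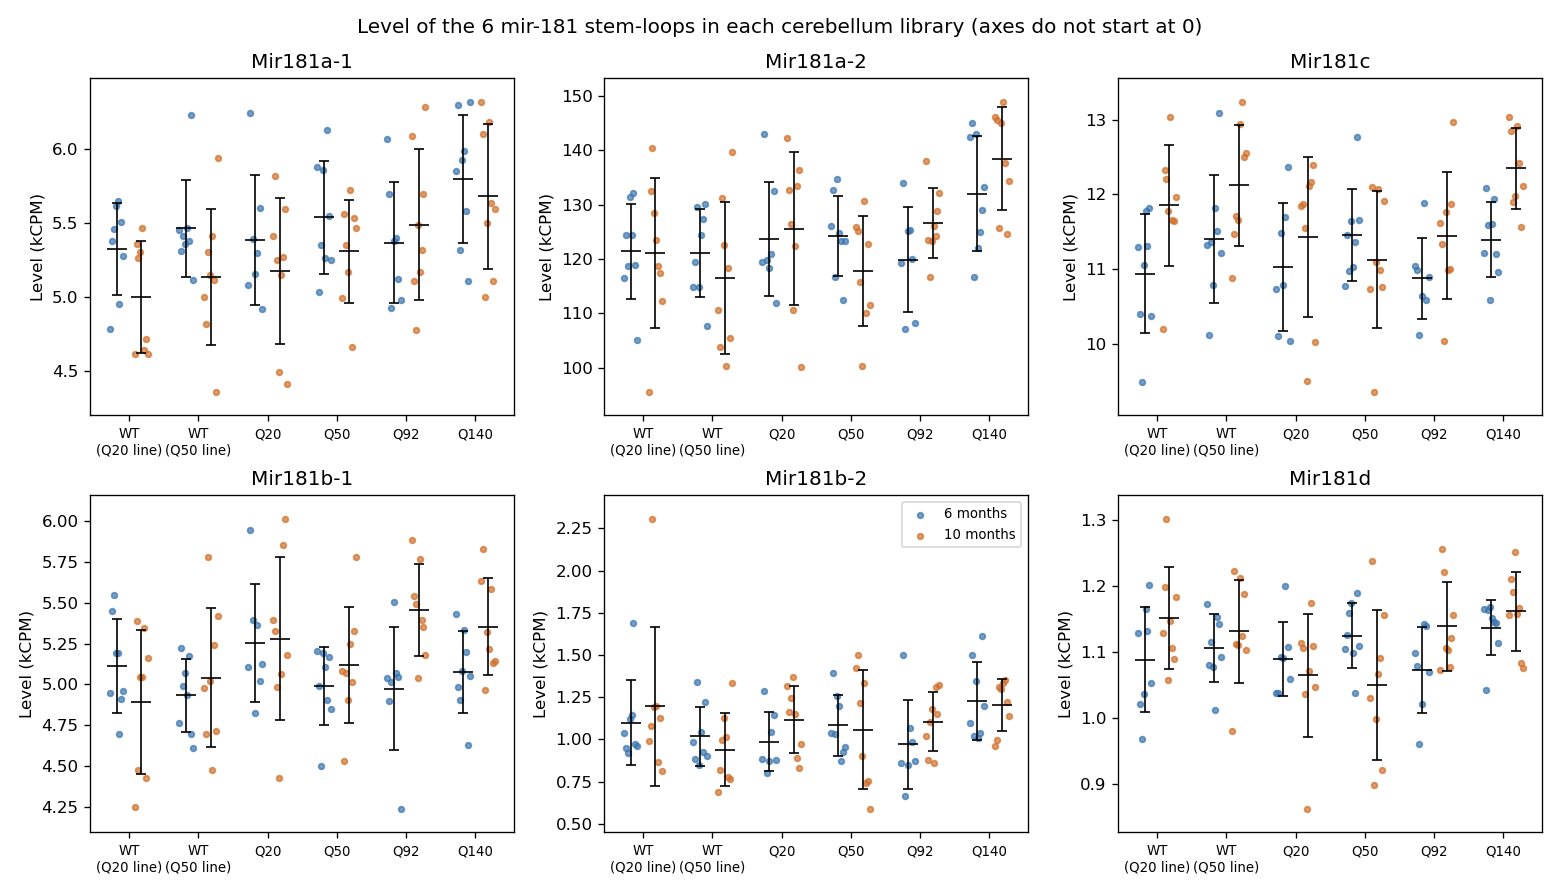
Level of each stem-loop in kCPM (vertical axis, not starting at 0) in single libraries by genotype, with 6-month libraries in blue and 10-month libraries in orange, and the mean with SD as black bars. For Mir181a-2 all 8 Q140 libraries of 10 months lie above the control median of 123, while the other loci overlap more.

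At a single age edgeR called only Mir181a-2 at 6 months. There its log2 fold change was 0.16 ± 0.04 (adjusted p = 0.0372), while that of Mir181a-1 was 0.13 ± 0.04 (adjusted p = 0.0513). At this age 2.3% of all stem-loops passed in either direction and 0.461% as higher. DESeq2 called Mir181a-1 as well (adjusted p = 0.034) and limma called neither. At 10 months the changes were 0.19 ± 0.06 for Mir181a-2 (adjusted p = 0.0811) and 0.15 ± 0.05 for Mir181a-1 (adjusted p = 0.0966), and 0 of 6 loci were called by edgeR, DESeq2 or limma beside 2.3% of all stem-loops by edgeR, with 3 of 6 loci and 47 of 434 stem-loops at an unadjusted p under 0.05. Over both ages the adjusted p was 0.000867 for Mir181a-2 and 0.00198 for Mir181a-1, and both calls held in each of the 94 fits with 1 library left out. The 6-month call of Mir181a-2 was lost when any of 5 libraries was left out, namely Q140 female replicates 1, 2 and 4, Q20 male replicate 4 and Q20 female replicate 1 (adjusted p from 0.0502 to 0.101), and under several other settings. The value over both ages is made from the values of each, so it is not a separate observation.

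The sum of both mir-181a loci does not depend on how reads were divided between them. It rose by 0.15 ± 0.04 at 6 months (adjusted p = 0.0332) and by 0.16 ± 0.03 over both ages (adjusted p = 0.00148), and at 10 months it was 0.17 ± 0.06 higher (adjusted p = 0.13). With Mir181c added, which closes the set that divides reads, the change over both ages was 0.16 ± 0.03 (adjusted p = 0.00161). The 6 loci summed rose by 0.15 ± 0.03 over both ages (adjusted p = 0.00222), a sum of which Mir181a-2 makes the greater part.

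Mir181b-1, the partner of Mir181a-1 on chromosome 1, showed no detectable change at 6 months. Its level was 5.08 ± 0.253 kCPM in Q140 and 5.09 ± 0.309 in controls (SD), with 4 of 8 Q140 libraries above the control median. The log2 fold change was 0.0054, with a 95% interval from -0.06 to 0.07. At 10 months the level was 5.35 ± 0.297 in Q140 and 5.07 ± 0.467 in controls, a change of 0.09 ± 0.05 (adjusted p = 0.444), and 7 of 8 Q140 libraries lay above the control median. Over both ages the change was 0.05 ± 0.03 (adjusted p = 0.362).

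Mir181b-2, the partner of Mir181a-2 on chromosome 2, was the most variable locus. At 6 months it lay between 1.01 and 1.61 kCPM in Q140 (median 1.15) and between 0.802 and 1.69 in controls (median 0.973), and 8 of 8 Q140 libraries were above the control median. The log2 fold change of 0.31 ± 0.11 did not pass (adjusted p = 0.0974). The sum of Mir181b-1 and Mir181b-2, which does not depend on how reads were divided between them, was 0.06 ± 0.03 higher at 6 months (adjusted p = 0.392). How far the values of the single loci rest on that division was not tested. The highest control was WT male replicate 2 of the Q20 line, and without it the change was 0.33 (adjusted p = 0.0445). At 10 months the change was 0.08 ± 0.12 (adjusted p = 0.911) and over both ages 0.19 ± 0.08 (adjusted p = 0.148), which passed only without WT female replicate 3 of the Q20 line (0.23, adjusted p = 0.0449).

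Mir181c and Mir181d on chromosome 8 were slightly higher in Q140 at both ages without passing. At 6 months Mir181c was at 11.4 ± 0.503 kCPM in Q140 and 11.1 ± 0.824 in controls, and at 10 months the values were 12.3 ± 0.542 and 11.8 ± 0.910. Mir181d was at 1.14 ± 0.0418 and 1.09 ± 0.0617 at 6 months, and at 1.16 ± 0.0597 and 1.12 ± 0.0879 at 10 months. Both changed by 0.06 ± 0.03 over both ages (adjusted p = 0.169 for each), and 95% intervals from 0.01 to 0.12. At an unadjusted p under 0.05 over both ages were 5 of the 6 loci, Mir181b-1 being the exception, and 94 of 434 stem-loops. All 6 loci had a positive estimate at each age, with a median of 0.10 over both ages. Over all stem-loops tested the median was -0.0052, and 48.2% were positive. The 6-month estimate of Mir181b-1 was near 0. It turned negative in 5 of 12 other settings and in 11 of 46 fits with 1 library left out. All loci but Mir181d divide reads, so these signs and p-values are not separate observations.

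When the hairpins of a cluster were summed, the pairs on chromosomes 1 and 2 rose in Q140 over both ages. The chromosome 2 pair rose by 0.17 ± 0.04 (adjusted p = 0.00085) and the chromosome 1 pair by 0.10 ± 0.03 (adjusted p = 0.0128). At single ages edgeR did not call the chromosome 1 pair. Its change was 0.07 ± 0.03 at 6 months (adjusted p = 0.204) and 0.13 ± 0.04 at 10 months (adjusted p = 0.106). In Q92 at 10 months this pair was 0.12 ± 0.04 higher (adjusted p = 0.222). Reads were divided between loci of different chromosomes, so the cluster sums still depend on that division. The chromosome 8 pair was 0.06 ± 0.03 higher (adjusted p = 0.146). Counts of the chromosome 2 pair came nearly all from Mir181a-2, with a median of 116 counts for each count of Mir181b-2.

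**Figure D2:**
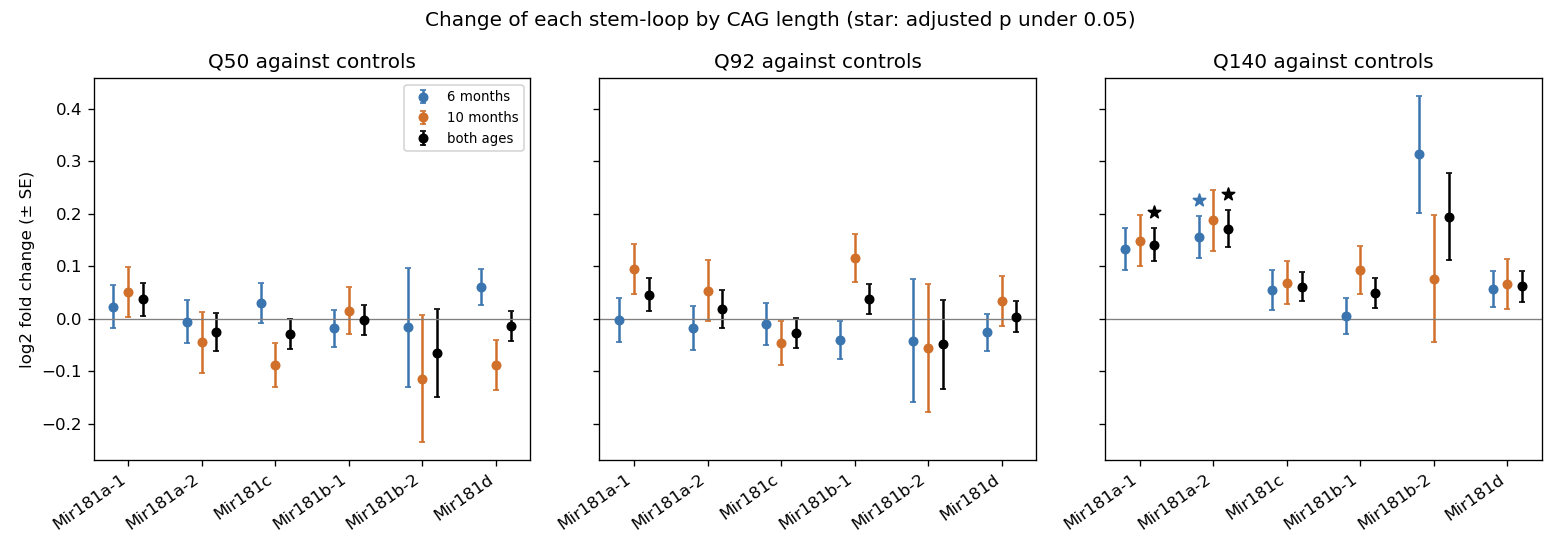
Log2 fold change (vertical axis, with SE) of each stem-loop in Q50, Q92 and Q140 against controls at 6 months (blue), 10 months (orange) and over both ages (black), with a star where the adjusted p was under 0.05. Stars appear only in Q140, for Mir181a-2 at 6 months and for Mir181a-1 and Mir181a-2 over both ages.

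The L tag, a part of the library name that the labels do not define, was a term of each fit, and the Q140 change was also taken within each tag. For Mir181a-2 it was 0.11 (tag 2, 3 Q140 and 3 control libraries), 0.16 (tag 3, 4 and 12) and 0.16 (tag 4, 1 and 8) at 6 months. At 10 months it was 0.28 (tag 1, 3 and 14) and 0.08 (tag 8, 5 and 10). For Mir181a-1 the same 5 values were -0.0036, 0.18, 0.21, 0.24 and 0.03. At 10 months the Q140 libraries of tag 1 were all female, while tag 8 held all the males and female replicate 3. Tag and sex can thus hardly be told apart in Q140 at that age. Tag 4 holds a single Q140 library and gives no replicate check. In the other 4 tags the estimate for Mir181a-2 was positive in 4 and that for Mir181a-1 in 3, and neither locus passed within a tag.

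Shorter repeats gave no call in the family. In Q50 at 6 and 10 months and over both ages, and likewise in Q92, 0 of 6 loci passed by edgeR, DESeq2 or limma. At an unadjusted p under 0.05 there was 1 locus in Q50 at 10 months, Mir181c, among 71 of 434 stem-loops, and 1 in Q92 at 10 months, Mir181b-1, among 47. Among all stem-loops 3.69% passed in Q50 at 10 months, and 0% in each of the other 5 comparisons of Q50 and Q92. Mir181a-2 had a log2 fold change over both ages of -0.02 ± 0.04 in Q50 and 0.02 ± 0.04 in Q92, and Mir181a-1 of 0.04 ± 0.03 and 0.05 ± 0.03. At 10 months the means of Mir181a-2 were 118 ± 10.1 kCPM in Q50, 127 ± 6.45 in Q92 and 138 ± 9.52 in Q140, and those of the 3 control groups ran from 117 to 126. At 6 months the means were 124 ± 7.404, 120 ± 9.63 and 132 ± 10.6 in that order, with control groups from 121 to 124. Q140 therefore stood highest of the 6 genotype groups at each age, while Q50 and Q92 lay within or near the controls.

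Mir181c and Mir181d had negative estimates in Q50 at 10 months. Mir181c lay between 9.35 and 12.1 kCPM in Q50 (median 11.04) and between 9.51 and 13.2 in controls (median 11.9), with 3 of 8 Q50 libraries above the control median, and Mir181d had 2 of 8. Both changed by -0.09 (SE 0.04 for Mir181c and 0.05 for Mir181d), with adjusted p of 0.273 and 0.328. At 6 months the estimates for Q50 were 0.03 ± 0.04 and 0.06 ± 0.03.

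With CAG length as a number, set to 7 for WT, Mir181a-1 and Mir181a-2 rose over both ages. The slopes were 0.11 ± 0.03 per 100 CAG for Mir181a-2 and 0.10 ± 0.02 for Mir181a-1 (adjusted p = 0.00584 for both, edgeR), beside 3% of all stem-loops in either direction and 1.84% as higher. The call of Mir181a-1 was lost with limma on FPKM values (0.08, adjusted p = 0.0544 and 0.053 with a pseudocount of 1 and 0.1). These slopes use the same Q140 and control libraries as the comparison above, and these loci divide reads. At each single age 0 of 6 loci passed by edgeR, DESeq2 or limma, while 2.76% of all stem-loops passed by edgeR at 6 months and 0.461% at 10 months. At an unadjusted p under 0.05 were 3 of 6 loci at either age, and 74 of 434 stem-loops at 6 months and 44 of 434 at 10 months. The remaining slopes over both ages were 0.04 ± 0.02 for Mir181b-1, 0.10 ± 0.06 for Mir181b-2, 0.03 ± 0.02 for Mir181c and 0.04 ± 0.02 for Mir181d, and none passed.

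Comparisons within a line, whose groups carry the same housing label, gave 0 of 6 loci by edgeR and DESeq2. Against WT of its own line, Q20 had a change of Mir181a-2 of 0.03 ± 0.05 at 6 months and 0.05 ± 0.07 at 10 months. For Q50 the values were -0.0063 ± 0.05 and -0.0023 ± 0.07. At an unadjusted p under 0.05 at 10 months were Mir181b-1 (0.11 ± 0.05) and Mir181d (-0.11 ± 0.06) in Q20 and Mir181c in Q50 (-0.13 ± 0.05, adjusted p = 0.372). Over all stem-loops edgeR called 0% in each of these 4 comparisons, and DESeq2 called 2 of 434 in Q20 at 6 months and 0 in the others.

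The Q140 change did not differ detectably between ages or sexes. The interaction with age was 0.04 ± 0.07 for Mir181a-2 and 0.02 ± 0.06 for Mir181a-1, and the value furthest from 0 was -0.23 ± 0.17 for Mir181b-2 (adjusted p = 0.85). The interaction with sex for Mir181a-2 was near 0 with an SE of 0.08 at 6 months, and -0.07 ± 0.12 at 10 months. At 10 months all Q140 males carried L tag 8, and most Q140 females L tag 1. Sex and tag can hardly be told apart in these libraries. By edgeR and DESeq2, 0 of 6 loci passed in these 3 tests, none had an unadjusted p under 0.05, and edgeR called 0% of all stem-loops. For the interaction with sex at 6 months DESeq2 called 3 of 434 stem-loops. With such errors, a difference of the size of the Q140 change itself could have been missed.

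Between males and females 0 of 6 loci passed by edgeR, DESeq2 or limma at either age, beside 1.15% of all stem-loops at 6 months and 6.91% at 10 months. Mir181c was higher in males by 0.06 ± 0.03 at each age (adjusted p = 0.322 and 0.242), and Mir181d by 0.05 ± 0.02 at 6 months alone (adjusted p = 0.322). Mir181b-2 was 0.22 ± 0.08 lower in males at 10 months, a log2 fold change of -0.22 (adjusted p = 0.126). No L tag occurred at both ages, so age and tag cannot be told apart and were not tested. In controls the 10-month mean log2 level differed from the 6-month mean by -0.08 for Mir181a-1, -0.02 for Mir181a-2 and 0.08 for Mir181c, while over all stem-loops the middle 50% lay between -0.08 and 0.08.

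The ratio of paired loci within a library does not depend on its total. Mir181a-1 had a median of 0.0432 counts for each count of Mir181a-2, with a range of 0.0374 to 0.0539 over 94 libraries. Mir181c had 10.3 counts for each of Mir181d, ranging from 8.22 to 11.8. These ratios were narrow, whereas that of Mir181b-1 to Mir181b-2 ran from 1.94 to 9.86 with a median of 4.82.

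None of the 6 tests of these ratios between Q140 and controls passed (exact two-sided permutation test, adjusted over 6). The log2 ratio of Mir181b-1 to Mir181b-2 at 6 months was 2.07 ± 0.318 in Q140 and 2.32 ± 0.278 in controls (SD), a difference of -0.25 (exact p = 0.0438, adjusted p = 0.263). Without WT male replicate 2 of the Q20 line the difference was -0.28 (exact permutation test, adjusted p = 0.0491). The other 5 differences were between -0.10 and 0.0074, with exact adjusted p of 0.851. For the 2 mir-181a loci the differences were -0.0099 at 6 months and -0.04 at 10 months. These loci divide reads, so their ratio also depends on that division, whose part in it was not tested.

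**Figure D3:**
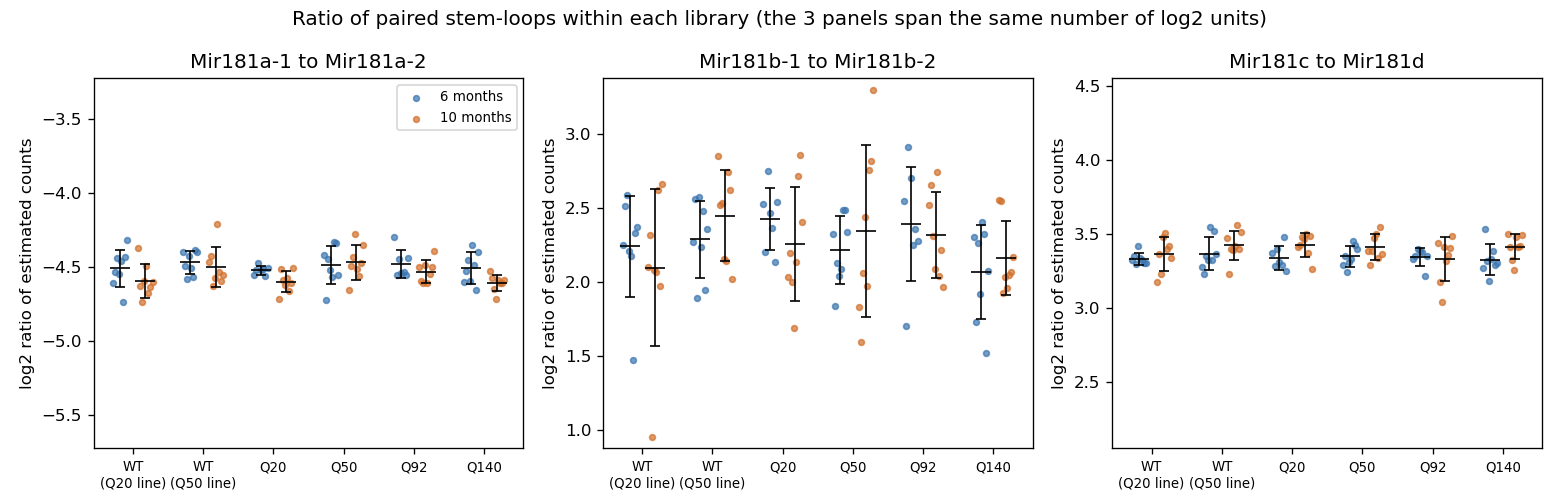
Log2 ratio of estimated counts of paired stem-loops (vertical axis, the same span in each panel) in single libraries by genotype, with 6-month libraries in blue and 10-month libraries in orange, and the mean with SD in black. The ratio of Mir181b-1 to Mir181b-2 spreads from 1.94 to 9.86 on the linear scale, and the other ratios stay narrow in every genotype.

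The ratio of cluster partners was examined as well, a comparison chosen after the values were seen. Mir181a-1 relative to Mir181b-1, 97 bases apart, had a log2 ratio of 0.19 ± 0.095 in Q140 and 0.08 ± 0.102 in controls at 6 months, higher by 0.11 (exact permutation p = 0.0141, adjusted p = 0.0564 over 4 tests). At 10 months the difference was 0.07 (exact permutation p = 0.156, adjusted p = 0.208). For Mir181a-2 relative to Mir181b-2 the differences were -0.13 and 0.01 (exact permutation, adjusted p = 0.208 and 0.913). A different response of cluster partners was therefore not shown at the threshold, although the 6-month difference on chromosome 1 passed with all libraries (0.11, exact adjusted p = 0.0423) and in 6 of 31 fits with 1 library left out.

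Levels across animals were compared after genotype, sex and L tag were taken out, for 15 pairs of loci at each age (30 tests). Mir181c and Mir181d, which share no reads, had a Pearson's r of 0.548 at 6 months and 0.584 at 10 months (Spearman's rho 0.556 and 0.489, permutation adjusted p at most 0.00219 over 30 tests). Without the 2 libraries furthest from the median of Mir181c, r was 0.466 and 0.526. Mir181a-1 and Mir181b-1, which share a cluster and no reads, had r of 0.37 and 0.466 (rho 0.33 and 0.482), and r of 0.439 and 0.482 without the 2 furthest libraries. The permutation adjusted p for r was 0.0297 and 0.0027, and for rho 0.0695 and 0.00244.

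Mir181a-2 and Mir181b-2 had r of 0.708 at 6 months and 0.38 at 10 months (rho 0.691 and 0.323), and 0.665 and 0.351 without the 2 furthest libraries. The permutation adjusted p for r was 6e-05 and 0.0237, and for rho 0.0001 and 0.0695. The 2 mir-181a loci, which divide reads, had r of 0.414 and 0.724 (rho 0.362 and 0.729), and 0.427 and 0.716 without the 2 furthest libraries. The permutation adjusted p for r was 0.0148 and 6e-05, and for rho 0.046 and 0.0001. Mir181b-1 and Mir181b-2, which also divide reads, had r of -0.16 and -0.259 (rho -0.234 and -0.125), and -0.248 and -0.127 without the 2 furthest libraries (permutation adjusted p at least 0.152). Mir181c divides reads with both mir-181a loci from another chromosome. With Mir181a-1 its r was 0.187 at 6 months and 0.701 at 10 months (rho 0.202 and 0.75). Without the 2 libraries furthest from the median of Mir181a-1, r was 0.079 and 0.72. With Mir181a-2, Mir181c had r of 0.191 and 0.59 (rho 0.182 and 0.553). Without the 2 libraries furthest from the median of Mir181a-2, r was 0.106 and 0.477. The permutation adjusted p of these pairs was at least 0.327 at 6 months and at most 0.0003 at 10 months. Mir181a-2 and Mir181b-1, on different chromosomes and with no common reads, had r of 0.278 at 6 months and 0.612 at 10 months (rho 0.156 and 0.622). Without the 2 libraries furthest from the median of Mir181b-1, r was 0.144 and 0.569. The permutation adjusted p for r was 0.131 and 6e-05, and for rho 0.436 and 0.00015. The smallest p that the permutations can give is 1e-05 before adjustment, so 6e-05 and 0.0001 are limits of the test. Normalization and library quality act on all loci of a library, and their part in these relations was not tested.

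**Figure D4:**
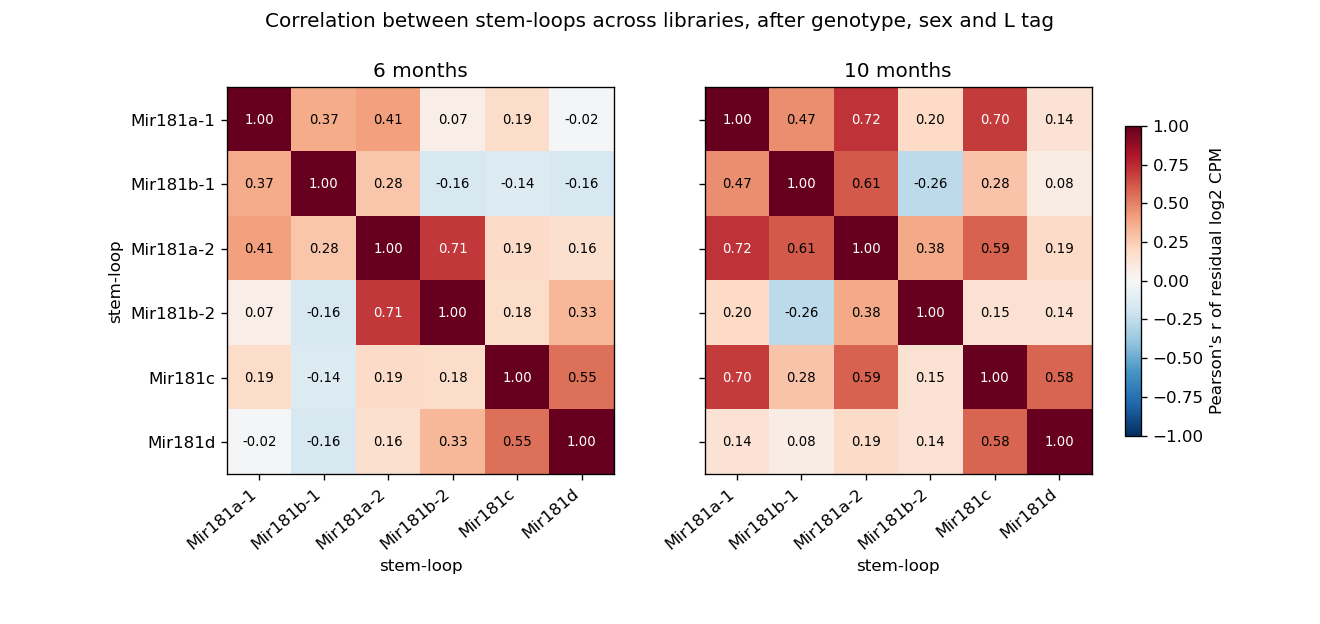
Pearson's r of residual log2 CPM between the 6 stem-loops (rows and columns, ordered by cluster) across 46 libraries of 6 months and 48 of 10 months, from blue (negative) to red (positive). Mir181c with Mir181d and Mir181a-1 with Mir181b-1 are positive at both ages, and Mir181b-1 with Mir181b-2 is negative at both. Mir181c with Mir181a-1 and with Mir181a-2, on different chromosomes and dividing reads, stands at 0.701 and 0.59 at 10 months and at 0.187 and 0.191 at 6 months.

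Outside the family, the 3 stem-loops whose residuals followed the summed family most closely were MI0014103 (r of 0.608 at 6 months and 0.759 at 10 months), MI0003521 (0.682 and 0.604) and MI0000719 (0.601 and 0.653). The median of the mean r over the 428 other stem-loops was -0.00584, with a range of -0.544 to 0.684. These are the highest of 428 values, so they are a description only. In Q140 over both ages MI0003521 rose by 0.21 ± 0.06 (adjusted p = 0.0105), while the values of MI0000719 (0.08 ± 0.05) and MI0014103 (0.06 ± 0.05) did not pass.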

How the data were processed

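Small RNA of 96 mouse cerebellum libraries was studied, with groups as the labels give them. The study's methods name STAR for alignment to the mm10 build after adapter clipping and HTSeq for counting, and the submitters' processing notes name CASAVA 1.8.2. The authors deposited estimated counts per stem-loop, not normalized and not whole where reads were divided between loci. The program that divided them is not stated in the methods. The authors also deposited FPKM values, which equal the count scaled by library total and stem-loop length.

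IDs were paired with loci through the length implied by count and FPKM, which equalled the RefSeq length for all 6, and through the sets of loci whose summed counts were whole (within 0.04), which told apart the 2 loci of 89 bases. The members, lists and tests were chosen with earlier results of these data known. All 6 loci are named, and of other stem-loops the 3 with the highest mean correlation with the summed family.

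At each age, 8 or more libraries had to reach 10 counts, which left 434 stem-loops. R 4.3.3 with edgeR 4.0.16 was used for the main test (quasi-likelihood, each age apart): counts were rounded, TMM factors computed, genotype, sex and L tag entered as terms, and p-values adjusted after Benjamini-Hochberg over all 434 with a limit of 0.05. For both ages together, z values carrying the sign of the change were summed, and the fold change is the mean of the ages. Residual correlations used log2(CPM + 0.5) and 100000 permutations. The Q140 term at each age was tested on simulated data for edgeR, DESeq2 and limma, and the other fits were not. A change of the size reported for Mir181a-2 was not tested in this way. Alternatives were DESeq2 1.42.0, RLE factors, other count filters, all libraries, no L tag, WT controls alone, summed loci, limma 3.58.1 with FPKM values as log2(FPKM + 1) or log2(FPKM + 0.1), a replicate block, and each library left out. Intervals of 95% are normal intervals from the SE. The methods name no molecular identifiers for the reads. The planned comparisons of neighbouring stem-loops and marker microRNAs were not run.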

Additional observations from a re-analysis of the deposited data

Results flagged for a closer look

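In 11 of 108 sets of values (6 levels and 3 ratios in each genotype and age) 1 library stood apart from the others of its group, where chance gives about 5%. Levels are in kCPM (CPM divided by 1000).

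WT male replicate 2 of the Q20 line at 6 months had the highest Mir181b-2 of its group (1.69, next 1.15) and with it the lowest log2 ratio of Mir181b-1 to Mir181b-2 (1.48, next 2.18). WT female replicate 3 of the Q20 line at 10 months had the highest Mir181b-2 of all libraries (2.31, next in its group 1.20) and the lowest ratio (0.956, next 1.98). The Z.k of these libraries was 0.453 and -0.502, so neither stood apart as a whole.

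Mir181a-1 was highest in WT male replicate 3 of the Q50 line at 6 months (6.23, next 5.46). Mir181c was highest in Q50 male replicate 3 at 6 months (12.8, next 11.65). Mir181d was highest in Q20 male replicate 2 at 6 months (1.20, next 1.11), lowest in Q140 female replicate 2 at 6 months (1.04, next 1.11) and lowest in Q20 female replicate 4 at 10 months (0.862, next 1.04). The log2 ratio of Mir181c to Mir181d was highest in WT female replicate 4 of the Q20 line at 6 months (3.42, next 3.35) and lowest in Q92 male replicate 2 at 6 months (3.21, next 3.33).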

How the results depend on the processing

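Over both ages the calls of Mir181a-1 and Mir181a-2 in Q140 held under all 12 other settings, with log2 fold changes of 0.12 to 0.16 and 0.15 to 0.18. For CAG length over both ages 1 locus instead of 2 passed with limma on log2(FPKM + 1) and on log2(FPKM + 0.1), where Mir181a-1 had 0.08 (adjusted p = 0.0544 and 0.053). In Q140 at 6 months 1 locus passed, and 2 with DESeq2 and with the loci of a mature form summed (a sum counts for both its loci), but 0 with no low count filter, no L tag, WT controls alone, the replicate block and both limma fits (adjusted p of Mir181a-2 from 0.0501 to 0.0871). With the replicate block Mir181a-2 had 0.15 (adjusted p = 0.0569) at 6 months. Other counts did not move by over 1.5 times, no called value turned its sign, and 52 of 1092 single values, none of them called, did.

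With each library left out, the loci called in Q140 ranged from 0 to 3 at 6 months and from 2 to 3 over both ages, and in CAG length from 0 to 1 at 6 months (Mir181a-2 without Q92 female replicate 3) and from 0 to 1 at 10 months (Mir181a-1 without Q140 female replicate 3). At 6 months Mir181a-1 passed without any of Q20 female replicate 3, Q50 female replicate 4, Q50 male replicate 2, Q92 female replicate 1, Q92 male replicate 1 or 2, or WT male replicate 2 of the Q20 line. The 6-month difference in the ratio of Mir181b-1 to Mir181b-2 ranged from -0.29 to -0.17, and that of Mir181a-1 to Mir181b-1, a comparison chosen after seeing the data, from 0.09 to 0.12, and was 0.11 with all libraries. The latter passed without Q140 female replicate 1 or 3, Q140 male replicate 2, WT female replicate 1 or WT male replicate 3 of the Q50 line, or WT male replicate 3 of the Q20 line (exact permutation, adjusted p from 0.00408 to 0.0492). Without 8 libraries with Z.k below -3 (added once the data had been seen) Mir181a-1 had 0.13 and Mir181a-2 0.15 in Q140 over both ages (adjusted p = 0.0217 and 0.0112).

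Nothing in the labels pairs animals of equal replicate number. Deviations of same-numbered libraries had a mean correlation of -0.0079 at 6 months and 0.086 at 10 months, with single values from -0.65 to 0.62. On average 8 of 46 and 22 of 48 libraries correlated best with their own number, where equal chance gives 11.5 and 12. The L tag was not taken out of these deviations, and whether same-numbered libraries share a factor was not tested.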

Other observations

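The libraries left out for low connectivity were not extreme in the ratio of the 2 mir-181a loci, but Q92 male replicate 4 was so in level. Q20 female replicate 2 at 6 months had 133 kCPM (CPM divided by 1000) of Mir181a-2 and 5.57 of Mir181a-1, and the family took 16.3% of its counts. Q92 male replicate 4 at 6 months had 149 and 6.15, with 17.7% of its counts in the family. Its Mir181a-2 and its family share lay above those of every kept library of 6 months (highest 145 kCPM, in Q140, and 17.2%). The log2 ratios of Mir181a-1 to Mir181a-2 in the 2 libraries left out were -4.575 and -4.60, inside the range of the control libraries kept at that age (-4.74 to -4.32).

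The WT mice of both lines, which were pooled as controls, were also compared with each other in the model with all 6 genotype groups. WT of the Q50 line differed from WT of the Q20 line in Mir181a-2 by 0.02 ± 0.05 (SE) at 6 months and -0.04 ± 0.07 at 10 months, and in Mir181b-2 by -0.26 ± 0.15 at 10 months (adjusted p = 0.599). By edgeR and DESeq2, 0 of 6 loci passed at either age, and none had an unadjusted p under 0.05. Over all 434 stem-loops edgeR called 1 and DESeq2 called 6 between the WT groups at 6 months, and both called 0 at 10 months.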
